A study of Arabidopsis thaliana with 18 samples.

Results

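Wild type Arabidopsis thaliana seedlings kept for 3 h on jasmonic acid (JA) were set against untreated wild type seedlings at 0 h, gene by gene. The libraries were chosen by the genotype and the time on JA recorded for each, which gave 6 of the 18 libraries of the study, 3 in each group. Of 22209 genes listed for every library, 17835 had 3 or more libraries with an FPKM of 1 or above and were tested. The FPKM unit divides a gene's fragments by its transcript length and the library's mapped fragments, so levels may be compared between genes.

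The study grew wild type (accession Col-0) and ecap-2 seedlings for 6 days on medium with sucrose in long days, moved them to plates with 50 µM JA for 0, 1 or 3 h, and sequenced total RNA from whole seedlings. ECAP is, by the series title, an adaptor between the co-repressor TPR2 and the JAZ proteins, and ecap-2 is a mutant of it. The treated group is wild type after 3 h on JA, and the untreated group is wild type at 0 h. Wild type after 1 h on JA, and ecap-2 at 3 h on JA and at 0 h untreated, gave the timing and the genotype dependence of the same changes. These libraries and those of ecap-2 at 1 h also entered the estimate of spread behind each p-value, and a fit on the 6 compared libraries alone called 7212 genes in place of 7400. Whether replicates were separate cultures is not labelled, and each p-value therefore covers only variation among these libraries, possibly technical. No mock-treated seedlings at 3 h were analysed here, and the effects of JA, of transfer and of time of day cannot be told apart.

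Jasmonates are lipid hormones made from plastid membrane fatty acids through the lipoxygenase, allene oxide synthase and allene oxide cyclase steps and then shortened in peroxisomes. Their isoleucine conjugate joins the F-box receptor COI1 to JAZ repressors, which are then degraded, and this frees MYC transcription factors that bind G-box-like sites. The pathway is known in Arabidopsis for switching on wound defence, glucosinolate synthesis and its own synthesis, turnover and repressor genes.

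The size of the response is shown first. Of the tested genes 41.5% passed an adjusted p of 0.05, with 3817 (21.4%) higher in treated than in untreated seedlings and 3583 (20.1%) lower. Rescaling every library to a common total changed that split to 3099 higher and 4816 lower, so the share of higher calls was 39.2% there and 51.6% without rescaling. A change of at least 2-fold on the log2(FPKM + 1) scale was passed by 6.75% of the tested genes, 771 upward (4.32%) and 433 downward (2.43%). Large changes were mostly upward, with 213 genes higher and 52 lower by at least 4-fold, and 60 higher and 8 lower by at least 8-fold. The genes that rose at least 2-fold had a median level of 23.8 FPKM in treated and 6.76 FPKM in untreated seedlings, whereas those that fell had 7.85 and 23.56 FPKM. Together the genes that rose held 8.16%, 8.38% and 7.77% of all FPKM in the treated libraries, against 2.23%, 2.3% and 2.34% in the untreated libraries.

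**Figure D1:**
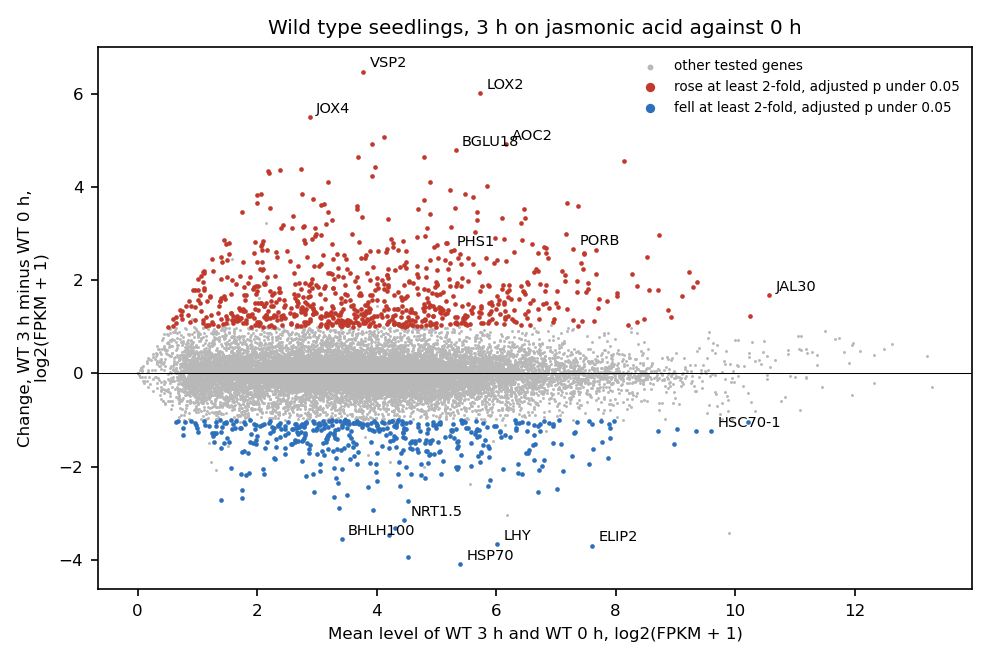
Each point is one of 17835 tested genes. The horizontal axis is the mean of the treated and untreated levels and the vertical axis is the change, treated minus untreated, both as log2(FPKM + 1). Red points (771) rose and blue points (433) fell by at least 2-fold with an adjusted p under 0.05, and the red cloud reaches further from 0 than the blue one.

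The libraries were alike within groups. Total FPKM ran from 746650 to 765209 in treated and from 687996 to 728987 in untreated libraries, and Pearson's r across genes was 0.986 to 0.991 within a group and 0.938 to 0.947 between the groups. Read depth is unknown. Shoot and root were both present in the tissue, as the photosynthesis gene RBCS1A stood at 9045, 9297 and 9093 FPKM in treated libraries and 10605, 11494 and 11264 FPKM in untreated libraries. The endodermal gene CASP1 had 44.9, 36.6 and 38.9 FPKM in treated libraries, against 56.2, 68.5 and 48.3 FPKM in untreated libraries. In bulk RNA fewer cells of a type and less RNA per cell cannot be told apart. The 15 tested root hair and root layer genes summed to 217 to 253 FPKM in treated and 301 to 382 FPKM in untreated libraries, and 7 of them fell and none rose. Of 18 photosynthesis genes 11 rose and 4 fell, while RBCS1A was lower (log2 change -0.28). Of all tested genes 21.4% rose and 20.1% fell. The root falls numbered 6 without untreated replicate 2 or treated replicate 2 or 3, and 10 after common-total or quantile scaling. The photosynthesis rises numbered 9 without untreated replicate 1 and 13 without untreated replicate 3, and its falls 6 after quantile scaling. The seed storage genes CRA1 and CRC overlapped between the groups, CRA1 with 6.66, 23.9 and 0.802 FPKM in treated and 15.9, 9.47 and 15.7 FPKM in untreated libraries.

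The 20 largest rises held JA genes beside genes of other or unknown roles. VSP2, LOX2, the jasmonate oxidase gene JOX4 and VSP1 came first, followed by AT4G22610, AOC2, the beta-glucosidase gene BGLU18 and JAZ10. AT4G22610, which encodes a protein of the lipid transfer and seed storage albumin family, had 79.2, 94 and 73.4 FPKM in treated libraries, against 1.16, 1.58 and 2.57 FPKM in untreated libraries (log2 change 4.93 ± 0.17, adjusted p = 2.94e-12). AT1G70820, annotated as a phosphoglucomutase, had 62.7, 63 and 63 FPKM in treated libraries, against 1.24, 1.27 and 2.28 FPKM in untreated libraries (log2 change 4.64 ± 0.12, adjusted p = 5.26e-14). The 3 treated values of each gene lay far above the highest untreated value. AT2G43550 encodes a knottin, a small cysteine-rich protein of the scorpion toxin fold, and had 1261, 1543 and 1308 FPKM in treated libraries, against 53.1, 54 and 63.6 FPKM in untreated libraries (log2 change 4.57 ± 0.16, adjusted p = 1.37e-12), the highest treated level among these 20 genes. AT2G26370, an MD-2-related lipid recognition protein gene, had 67.9, 78.1 and 69.1 FPKM in treated libraries, against 2.26, 1.83 and 3.2 FPKM in untreated libraries. DIR5, a dirigent-like gene, was listed at 0 in all 3 untreated libraries and at 20.3, 21.6 and 16.7 FPKM in treated libraries. GCL1, which encodes a GCR2-like protein, had 61.7, 68 and 64.4 FPKM in treated libraries, against 2.41, 2.76 and 2.32 FPKM in untreated libraries. PGIP2, an inhibitor of fungal polygalacturonases, had 139.8, 152 and 143 FPKM in treated libraries, against 6.68, 8.73 and 10.4 FPKM in untreated libraries. Lack of overlap between the libraries was a condition for a place in this ranking, and 53.8% of all tested genes met it. For the genes given below with their 6 values, the treated and untreated values lay apart unless an overlap is stated.

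The sequences upstream of these genes are shown because the MYC factors of the JA pathway bind the G-box CACGTG and the related T/G-box AACGTG. Within 250 bases upstream of the gene start, read from RefSeq's TAIR10.1 copy of the genome, the 4 largest rises with either box were VSP1, AT1G70820, AT2G43550 and AT2G26370. VSP1, a vegetative storage protein gene with acid phosphatase likeness, had 97.5, 113 and 89.1 FPKM in treated libraries, against 1.82, 2.61 and 1.55 FPKM in untreated libraries. Each line below gives part of that window 5′ to 3′ toward the gene, with the box in capitals. VSP1 is at chr5:8509336-8509451 on the minus strand and carries the T/G-box as its reverse complement, AT1G70820 is at chr1:26705198-26705317 (plus), AT2G43550 at chr2:18073055-18073116 (plus) and AT2G26370 at chr2:11224381-11224500 (plus).
VSP1: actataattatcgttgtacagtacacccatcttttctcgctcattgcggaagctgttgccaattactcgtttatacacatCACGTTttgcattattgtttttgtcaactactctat
AT1G70820: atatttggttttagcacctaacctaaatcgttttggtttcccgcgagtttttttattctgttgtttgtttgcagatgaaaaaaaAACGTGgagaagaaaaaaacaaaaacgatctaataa
AT2G43550: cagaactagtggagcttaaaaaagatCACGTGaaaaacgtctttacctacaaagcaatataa
AT2G26370: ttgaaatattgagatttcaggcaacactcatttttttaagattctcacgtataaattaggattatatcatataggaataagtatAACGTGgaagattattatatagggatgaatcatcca

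The T/G-box was found on either strand in 31 of the 100 largest rises (31%), in 19% of the 770 genes with an upstream window that rose at least 2-fold, in 7.62% of the 433 that fell and in 7.72% of all 17790 tested genes with such a window. The G-box was found in 11.9% of the genes that rose, 12.7% of those that fell and 7.49% of all. The GCC box GCCGCC, which ethylene response factors bind, was found in 1.56%, 0.924% and 1.9%. The W-box core TTGAC, bound by WRKY factors, was found in 45.2%, 48.5% and 44.9%. The evening element AAATATCT, which the morning clock proteins bind, was found in 9.87% of the genes that rose, 4.16% of those that fell and 4.99% of all. It stood upstream of 7 of 15 tested day and evening clock genes. The G-box and the T/G-box differ in their first letter, so neither is counted as the other, and a window may hold several motifs. A match is a description of these letters in this window and not a binding site.

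The genes of JA synthesis rose at almost every step, with 12 of 13 tested members higher and none lower (median log2 change 1.69, against -0.0012 over all tested genes). The lipoxygenase gene LOX6 had 33.2, 34.3 and 35.1 FPKM in treated libraries, against 9.4, 9.82 and 10.5 FPKM in untreated libraries. AOS, the allene oxide synthase gene, had 285, 352 and 270.0 FPKM in treated libraries, against 24.7, 26.2 and 24 FPKM in untreated libraries (log2 change 3.54 ± 0.13, adjusted p = 2.02e-12). AOC2, an allene oxide cyclase gene, had 375, 428 and 379 FPKM in treated libraries, against 10.7, 12.4 and 12.9 FPKM in untreated libraries (log2 change 4.93 ± 0.17, adjusted p = 1.76e-12). Its chromosome neighbour AOC1 had 138, 188 and 151 FPKM in treated libraries, against 12.8, 14.5 and 18.9 FPKM in untreated libraries, and the order of the 2 copies was reversed between the groups, since AOC2 was the higher in each treated library and the lower in each untreated library. The copies share sequence, and FPKM may split their reads. OPR3, the peroxisomal reductase gene of the pathway, had 93.8, 114 and 96.9 FPKM in treated libraries, against 17.59, 16.1 and 15.4 FPKM in untreated libraries. OPCL1, which activates the product for side chain shortening, had 31.8, 36.6 and 30.7 FPKM in treated libraries, against 9.51, 7.4 and 5.94 FPKM in untreated libraries. KAT2, a thiolase gene of general beta-oxidation, was the member that did not pass, with 95.4, 87.5 and 96.4 FPKM in treated libraries, against 84, 85 and 93.2 FPKM in untreated libraries, and its groups overlapped.

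Genes that inactivate jasmonates moved with those that make them, as 8 of 9 rose and 1 fell (median 1.94). JOX4 and JOX3 encode oxygenases that hydroxylate free JA, and JOX3 had 37.6, 40.6 and 31.9 FPKM in treated libraries, against 0.914, 1.34 and 1.31 FPKM in untreated libraries (log2 change 4.11 ± 0.23, adjusted p = 1.01e-09). ST2A, a sulfotransferase gene for hydroxyjasmonate, had 43.1, 43.2 and 40.7 FPKM in treated libraries, against 3.07, 3.39 and 3.26 FPKM in untreated libraries. The P450 genes CYP94B1, CYP94B3 and CYP94C1, whose enzymes oxidise the isoleucine conjugate, had log2 changes of 2.76 ± 0.10, 1.45 ± 0.16 and 1.58 ± 0.12. The amidohydrolase genes IAR3 and ILL6, which split the conjugate, changed by 1.93 ± 0.08 and 1.94 ± 0.17. JMT, the JA methyltransferase gene, went the other way and had 0.738, 1.02 and 0.773 FPKM in treated libraries, against 2.19, 1.73 and 2.2 FPKM in untreated libraries (log2 change -0.72 ± 0.12, adjusted p = 0.000132). No treated JMT value reached the lowest untreated one.

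All 11 tested JAZ repressor genes rose, from a log2 change of 0.29 to one of 4.65, and 10 passed without untreated replicate 1 or treated replicate 2. JAZ13, a divergent member, had 10.6, 17.2 and 12.2 FPKM in treated libraries, against 0.195, 0.14 and 0 FPKM in untreated libraries. JAZ9 had 259, 310.3 and 264 FPKM in treated libraries, against 36.8, 50.3 and 50.8 FPKM in untreated libraries. JAZ12 had 61.9, 69.8 and 71.3 FPKM in treated libraries, against 32.7, 38.2 and 42.2 FPKM in untreated libraries. The receptor and its transcription factors counted 10 rises and 2 falls among 14 tested genes. The rises numbered 6 without untreated replicate 2 or treated replicate 2 or 3, with a pseudocount of 5 and after quantile scaling, and 5 with a mean of at least 5 FPKM required. The falls numbered 1 without untreated replicate 2 or 3 or treated replicate 1 or 2. MYC2, the main activator, had 46.4, 49.3 and 45.5 FPKM in treated libraries, against 14.9, 13.2 and 9.82 FPKM in untreated libraries, and its relative MYC3 had 21.8, 23.7 and 21.6 FPKM in treated libraries, against 18.8, 17.9 and 19 FPKM in untreated libraries, a log2 change of 0.25 ± 0.074 whose call ended without treated replicate 2 and after common-total scaling (adjusted p = 0.053 to 0.061). MYC4 had 9.38, 11.4 and 9.75 FPKM in treated libraries, against 12.5, 10.4 and 9.19 FPKM in untreated libraries and its groups overlapped. JAM1, a bHLH repressor of the same targets, had 19.5, 22.7 and 19.6 FPKM in treated libraries, against 7.42, 7.41 and 6.92 FPKM in untreated libraries (log2 change 1.39 ± 0.091, adjusted p = 1.94e-09). ORA59, the factor that joins JA and ethylene signals, was low, with 3, 1.95 and 4.27 FPKM in treated and 0.145, 0.0348 and 0.259 FPKM in untreated libraries. COI1, the receptor gene, fell, with 12.8, 12.8 and 12.6 FPKM in treated libraries, against 17.3, 17.8 and 16.7 FPKM in untreated libraries (log2 change -0.41 ± 0.069, adjusted p = 0.000133).

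Among JA-induced defence genes all 9 that passed the filter rose, but 4 others stood under it and 1 was not analysed here. CORI3, a tyrosine transaminase family gene, had 22.3, 25.8 and 20.02 FPKM in treated libraries, against 0.0796, 0.261 and 0.098 FPKM in untreated libraries (log2 change 4.37 ± 0.30, adjusted p = 2.08e-08). TAT3, a tyrosine aminotransferase gene, had 27.3, 26.1 and 26.2 FPKM in treated libraries, against 1.39, 1.43 and 0.512 FPKM in untreated libraries. CLH1, a chlorophyllase gene, had 117, 167 and 120.4 FPKM in treated libraries, against 11, 11 and 9.43 FPKM in untreated libraries. The jacalin-like lectin gene JAL30 had the highest level of the list, with 2779.8, 2855 and 2559 FPKM in treated libraries, against 801, 902 and 846 FPKM in untreated libraries. GRX480, a glutaredoxin gene of the salicylic acid and immune list, had 18.1, 19 and 18 FPKM in treated libraries, against 1.43, 0.375 and 0.902 FPKM in untreated libraries (log2 change 3.39 ± 0.16, adjusted p = 2.95e-11), while that list as a whole had 3 members up and 2 down of 9. The 2 falls became 1 when any compared library other than untreated replicate 1 was left out. Of all tested genes 21.4% rose and 20.1% fell, and 7 more members of the salicylic acid and immune list stood under the filter. WRKY70, a factor of the salicylic acid branch, fell, with 0.62, 0.819 and 0.744 FPKM in treated libraries, against 1.96, 3.41 and 2.43 FPKM in untreated libraries. ARGAH2, an arginase gene, had 226, 262 and 176 FPKM in treated libraries, against 45.9, 48.3 and 42.7 FPKM in untreated libraries.

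**Figure D2:**
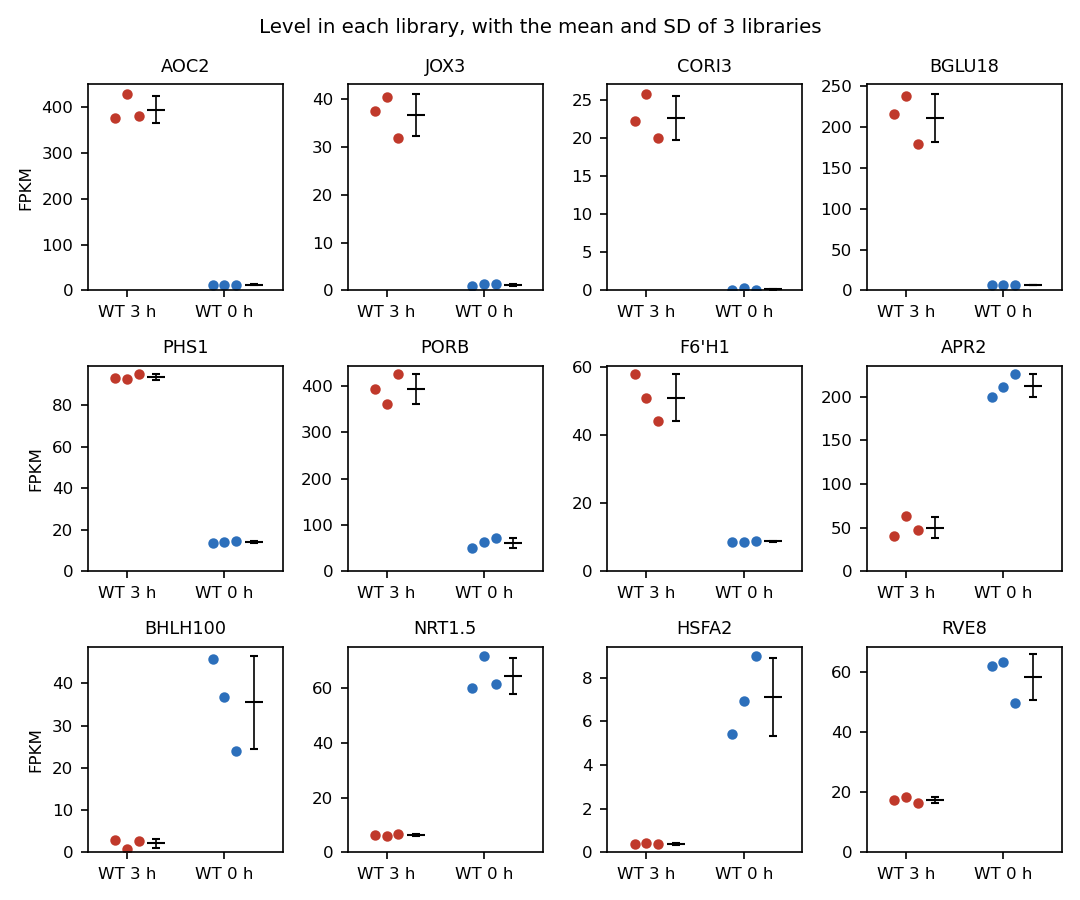
Points are FPKM in each of the 3 treated (red) and 3 untreated (blue) libraries, and black bars are means with SD (n = 3). The 7 panels from AOC2 to F6′H1 have all treated points above all untreated ones, and the 5 from APR2 to RVE8 have them below.

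Glucosinolates are sulfated thioglucosides that myrosinases split on wounding, and the indole class is made from tryptophan and the aliphatic class from methionine. All 7 tested tryptophan synthesis genes rose, with ASA1, the first committed enzyme's gene, at 77, 85.1 and 80.5 FPKM in treated libraries, against 20.3, 22.5 and 20.7 FPKM in untreated libraries (log2 change 1.89 ± 0.065, adjusted p = 6.31e-13), and TSB1, the tryptophan synthase beta gene, at 156, 166 and 160.3 FPKM in treated libraries, against 46.7, 46.4 and 47.1 FPKM in untreated libraries. Indole glucosinolate synthesis had 16 rises and 1 fall among 18 tested genes (median 1.62). CYP83B1, whose enzyme oxidises indole aldoxime, had 427, 450.3 and 412 FPKM in treated libraries, against 75.3, 75 and 66.8 FPKM in untreated libraries (log2 change 2.56 ± 0.093, adjusted p = 1.11e-12). CYP81F4, which modifies the indole ring, had 665, 686 and 606 FPKM in treated libraries, against 133, 149 and 158 FPKM in untreated libraries. The regulator genes parted, since MYB51 fell, with 1.4, 1.76 and 2.24 FPKM in treated libraries, against 4.17, 5.53 and 5.67 FPKM in untreated libraries (log2 change -1.13 ± 0.17, adjusted p = 5.63e-05), whereas MYB34 had 111, 125 and 99.7 FPKM in treated libraries, against 32.9, 30.2 and 25.9 FPKM in untreated libraries. MYB34 lay outside the naming rule and was picked after its values were seen.

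All 18 tested aliphatic glucosinolate genes rose (median 1.93). SOT17, the sulfotransferase gene of the last core step, had 74, 78.5 and 74.2 FPKM in treated libraries, against 14.1, 11.4 and 12.7 FPKM in untreated libraries (log2 change 2.48 ± 0.084, adjusted p = 4.85e-13). IPMI1, an isopropylmalate isomerase subunit gene of side chain elongation, had 95.4, 98.6 and 90.6 FPKM in treated libraries, against 21.5, 14.8 and 17.8 FPKM in untreated libraries. BAT5, a plastid keto acid transporter gene, had 37.3, 38 and 34.2 FPKM in treated libraries, against 9.46, 6.93 and 6.96 FPKM in untreated libraries. In each of them the lowest treated library was above the highest untreated one. In the myrosinase and ER body list 13 of 14 rose. ER bodies are endoplasmic reticulum compartments that store beta-glucosidases away from their substrates. BGLU18, the wound-induced enzyme of leaf ER bodies, had 216, 237 and 179.7 FPKM in treated libraries, against 6.76, 6.15 and 6.86 FPKM in untreated libraries (log2 change 4.80 ± 0.15, adjusted p = 6.21e-13). BGLU22 had 512, 496 and 519 FPKM in treated libraries, against 76.9, 89.3 and 76.3 FPKM in untreated libraries. NAI1, the bHLH factor for ER body formation, had 124, 132 and 123 FPKM in treated libraries, against 28.2, 40.3 and 39.1 FPKM in untreated libraries. NAI2, the structural protein, had 623, 629 and 613 FPKM in treated libraries, against 157, 184 and 169.9 FPKM in untreated libraries. TGG2, a myrosinase gene of idioblast cells, had 6.3, 6.72 and 5.87 FPKM in treated libraries, against 4.9, 6.11 and 4.67 FPKM in untreated libraries and overlapped. ER folding genes rose as well, 8 of 9, but by less (median 0.64), PDIL1-2 most with 58.9, 58.5 and 53.5 FPKM in treated libraries, against 27.9, 24.4 and 26.9 FPKM in untreated libraries, while the stress factor gene BZIP60 had 41.7, 40.4 and 35.6 FPKM in treated libraries, against 41.2, 41.6 and 37.3 FPKM in untreated libraries and overlapped.

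In the sulfate assimilation and glutathione list 13 of 18 tested members rose and 3 fell. APK2 and APK1, which make the sulfate donor PAPS used by glucosinolate sulfotransferases, rose, APK2 with 246, 277 and 239.6 FPKM in treated libraries, against 37.4, 34.2 and 35.9 FPKM in untreated libraries (log2 change 2.79 ± 0.085, adjusted p = 1.48e-13) and APK1 with 161, 172 and 155 FPKM in treated libraries, against 42.2, 42.3 and 46.2 FPKM in untreated libraries. APR2, the main reductase of the competing branch toward cysteine, fell, with 40.2, 63.2 and 47.5 FPKM in treated libraries, against 200.1, 212 and 226 FPKM in untreated libraries (log2 change -2.08 ± 0.24, adjusted p = 5.18e-06). APR3 had 72.1, 94.8 and 73.2 FPKM in treated libraries, against 132, 144 and 187 FPKM in untreated libraries. No treated APR2 value came near an untreated one. The glutathione synthesis genes GSH1 and GSH2 rose, GSH1 with 336, 344 and 338 FPKM in treated libraries, against 128, 131 and 123 FPKM in untreated libraries and GSH2 with 101, 107 and 98.6 FPKM in treated libraries, against 38.1, 38.9 and 38.2 FPKM in untreated libraries. Of the glutathione transferase genes 9 of 11 rose and none fell, GSTU6 with 99.8, 93 and 96.4 FPKM in treated libraries, against 17.59, 15.5 and 11.2 FPKM in untreated libraries. GSTU5 had 172, 204 and 188 FPKM in treated libraries, against 205, 217 and 204 FPKM in untreated libraries and overlapped.

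Of 13 tested ascorbate genes 6 rose and 2 fell, against 21.4% and 20.1% of all tested genes. The counts were 4 and 3 after common-total scaling, and 5 rose without untreated replicate 1 or 2 or treated replicate 2. MDAR3, a monodehydroascorbate reductase gene, had 173, 161 and 182 FPKM in treated libraries, against 22, 25.1 and 19.2 FPKM in untreated libraries (log2 change 2.91 ± 0.096, adjusted p = 3.08e-13). DHAR1, a dehydroascorbate reductase gene, had 726, 751 and 625 FPKM in treated libraries, against 193, 188 and 224 FPKM in untreated libraries, both of them recycling enzymes. VTC2, the GDP-galactose phosphorylase gene that limits ascorbate synthesis, fell, with 113, 144 and 109 FPKM in treated libraries, against 535, 472 and 315 FPKM in untreated libraries (log2 change -1.82 ± 0.23, adjusted p = 1.29e-05). GME, an epimerase gene of the same route, had 153, 169 and 158 FPKM in treated libraries, against 274, 275 and 268 FPKM in untreated libraries. VTC5, the second copy of the VTC2 enzyme, had 44.8, 54.3 and 47.1 FPKM in treated libraries, against 33.8, 33.9 and 30.4 FPKM in untreated libraries and so moved opposite to VTC2. In tocopherol synthesis VTE2 and VTE5 rose, with log2 changes of 1.28 ± 0.099 and 0.80 ± 0.13, and VTE1 and HPD fell, with -1.20 ± 0.072 and -0.98 ± 0.096.

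Starch genes went both ways, with 9 rises and 4 falls among 15 tested members. Their summed level was 630 to 660 FPKM in treated and 699 to 751 FPKM in untreated libraries. PHS1, the plastid glucan phosphorylase gene, had 93, 92.5 and 94.9 FPKM in treated libraries, against 13.7, 14 and 14.7 FPKM in untreated libraries (log2 change 2.64 ± 0.06, adjusted p = 1.10e-14). AMY3, a plastid alpha-amylase gene, had 54.2, 56.1 and 57.3 FPKM in treated libraries, against 9.68, 10.3 and 11.4 FPKM in untreated libraries. SEX1, the glucan water dikinase gene that starts degradation, had 49.7, 53.3 and 49.5 FPKM in treated libraries, against 13.7, 14.5 and 13.3 FPKM in untreated libraries. DPE1, a disproportionating enzyme gene, had 19.4, 18.17 and 20.04 FPKM in treated libraries, against 5.84, 6.07 and 5.39 FPKM in untreated libraries. Not every gene of a degrading enzyme rose. BAM3, the main leaf beta-amylase gene, had 24.8, 29.5 and 24.8 FPKM in treated libraries, against 108, 111 and 86.8 FPKM in untreated libraries (log2 change -1.91 ± 0.15, adjusted p = 4.89e-08). Its relatives BAM9 and BAM1 had log2 changes of -2.28 ± 0.14 and -1.07 ± 0.079. These 3 BAM genes were lower in every treated library than in any untreated one. The beta-amylase gene BAM5 went the other way, with a log2 change of 2.80 from a low untreated level, the largest rise of the list.

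In chlorophyll metabolism PORB, the light-dependent protochlorophyllide reductase gene, had 394, 360.3 and 425 FPKM in treated libraries, against 50.1, 62.8 and 71.7 FPKM in untreated libraries (log2 change 2.67 ± 0.12, adjusted p = 1.10e-11). Of 12 tested chlorophyll synthesis genes 3 rose and 2 fell, near the 21.4% and 20.1% of all tested genes. CHLH, a magnesium chelatase subunit gene, fell, with 431, 419 and 415 FPKM in treated libraries, against 571, 649 and 602 FPKM in untreated libraries. The falls in that list numbered 1 without untreated replicate 2 or treated replicate 1 or 2, and 5 after common-total scaling. NYC1, a chlorophyll b reductase gene, had 52.9, 54.6 and 56.4 FPKM in treated libraries, against 24.8, 32.7 and 31.9 FPKM in untreated libraries, whereas the stay-green gene NYE1 had 9.95, 9.62 and 10.1 FPKM in treated libraries, against 14.7, 15.5 and 16 FPKM in untreated libraries. Genes of the cold regulon rose in 5 of 7 tested cases, against 21.4% of all tested genes, and 3 more members stood under the filter. The rises numbered 4 without untreated replicate 3 or treated replicate 2. The median log2 change of the list was 2.48, and 0.48 with no filter. KIN1 had 41.9, 51.2 and 31.7 FPKM in treated libraries, against 1.35, 3.28 and 3.7 FPKM in untreated libraries (log2 change 3.53 ± 0.36, adjusted p = 2.10e-06). KIN2 had 268, 332 and 256 FPKM in treated libraries, against 31.2, 43 and 59.1 FPKM in untreated libraries. RD29A had 30.1, 33.5 and 32.2 FPKM in treated libraries, against 3.82, 6.22 and 4.89 FPKM in untreated libraries, but the dehydrin genes COR47 and ERD10 overlapped, with log2 changes of 0.09 ± 0.08 and 0.03 ± 0.065. Of 11 abscisic acid genes 2 rose and 3 fell, near the 21.4% and 20.1% of all tested genes. The falls numbered 2 without untreated replicate 2 or treated replicate 1 or 3 and with a pseudocount of 5, and 1 with a mean of at least 5 FPKM required. CYP707A1, an abscisic acid 8′-hydroxylase gene, had 30.9, 31 and 25.2 FPKM in treated libraries, against 4.88, 7.12 and 5.25 FPKM in untreated libraries. ABF3 fell, with 23.2, 22.3 and 21.5 FPKM in treated libraries, against 44.2, 51.7 and 44.3 FPKM in untreated libraries.

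In the iron deficiency list 15 of 19 tested members were lower and 2 higher (median -1.49), against 20.1% and 21.4% of all tested genes. The falls numbered 14 without untreated replicate 2 or 3 or treated replicate 1 or 3, and 12 of 16 with a mean of at least 5 FPKM required. BHLH100, BHLH38 and BHLH101 encode related bHLH factors of the iron deficiency response. BHLH100 had 2.84, 0.916 and 2.64 FPKM in treated libraries, against 45.8, 36.7 and 24 FPKM in untreated libraries (log2 change -3.56 ± 0.32, adjusted p = 4.66e-07). BHLH38 had 7.55, 2.13 and 4.17 FPKM in treated libraries, against 59, 38.4 and 25.4 FPKM in untreated libraries. BHLH101 had 4.73, 1.63 and 2.34 FPKM in treated libraries, against 28.2, 28.9 and 22.3 FPKM in untreated libraries. FRO2, the root ferric reductase gene, had 1.5, 0.848 and 0.815 FPKM in treated libraries, against 12.4, 6.44 and 5.09 FPKM in untreated libraries. OPT3, a phloem iron transporter gene, had 62.1, 57.8 and 54.8 FPKM in treated libraries, against 206, 168 and 139 FPKM in untreated libraries. The groups lay apart for all of these, but untreated replicate 1 was the highest of its group for BHLH100, BHLH38, FRO2 and OPT3. FIT, the bHLH master regulator of iron uptake, rose, with 10.04, 7.99 and 8.65 FPKM in treated libraries, against 5.08, 5.62 and 4.74 FPKM in untreated libraries (log2 change 0.68 ± 0.12, adjusted p = 0.000191). F6′H1, whose enzyme acts in the synthesis of the coumarin scopoletin, rose, with 57.9, 50.7 and 44.1 FPKM in treated libraries, against 8.77, 8.72 and 8.9 FPKM in untreated libraries (log2 change 2.40 ± 0.15, adjusted p = 1.28e-09). PYE, a bHLH factor of the stele, had 165, 157 and 162 FPKM in treated libraries, against 159.7, 151 and 159 FPKM in untreated libraries and overlapped.

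Heat shock genes were lower in 10 of 14 tested cases and higher in 3 (median -1.28), and 4 more members stood under the filter. HSFA2, the heat-inducible transcription factor gene, had 0.396, 0.452 and 0.364 FPKM in treated libraries, against 5.4, 6.94 and 8.99 FPKM in untreated libraries (log2 change -2.51 ± 0.21, adjusted p = 5.44e-08). ROF2, an immunophilin gene that acts with it, had 3.3, 3.81 and 3.48 FPKM in treated libraries, against 15.9, 26.4 and 20.6 FPKM in untreated libraries. HSP101, a disaggregase gene, had 3.5, 4.07 and 3.63 FPKM in treated libraries, against 14.6, 15.9 and 14.6 FPKM in untreated libraries. HSC70-1, the abundant constitutive chaperone gene, had 479, 525 and 514 FPKM in treated libraries, against 1197, 1233 and 1151 FPKM in untreated libraries (log2 change -1.24 ± 0.077, adjusted p = 1.06e-09). GOLS1, a galactinol synthase gene, rose, with 35.6, 40.4 and 37.9 FPKM in treated libraries, against 9.4, 12.1 and 13.7 FPKM in untreated libraries. Other genes among the 20 largest falls were cPT4, annotated as an undecaprenyl pyrophosphate synthetase, with 5.22, 5.11 and 4.2 FPKM in treated libraries, against 96.3, 97.7 and 74.6 FPKM in untreated libraries (log2 change -3.95 ± 0.17, adjusted p = 1.93e-11), and MEF1, an RNA editing factor gene of mitochondria, with 5.27, 5.23 and 5.19 FPKM in treated libraries, against 59.2, 73.4 and 52.6 FPKM in untreated libraries (log2 change -3.32 ± 0.23, adjusted p = 1.41e-08). AO, the L-aspartate oxidase gene that starts NAD synthesis, had 5.27, 5.57 and 4.58 FPKM in treated libraries, against 42.8, 33.6 and 23.3 FPKM in untreated libraries. NRT1.5, which loads nitrate into the root xylem, had 6.43, 6.09 and 6.56 FPKM in treated libraries, against 60.2, 72 and 61.5 FPKM in untreated libraries (log2 change -3.15 ± 0.14, adjusted p = 2.69e-11). AT5G45469, which has no annotated function, was listed at 0 in all treated libraries and at 3.36, 7.6 and 6.58 FPKM in untreated libraries.

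Upstream windows are shown for the 2 largest falls with a G-box, an evening element or a heat element pair. LHY, a morning clock gene, had 18.3, 17.8 and 15.4 FPKM in treated libraries, against 257, 243 and 189 FPKM in untreated libraries (log2 change -3.66 ± 0.11, adjusted p = 1.12e-13). Its window, at chr1:37916-38035 on the minus strand, holds a G-box and the heat element pair GAANNTTC, and BHLH100, at chr2:17199510-17199629 on the minus strand, holds a G-box. Capitals mark these motifs, and W-box cores, which 44.9% of all windows hold, are left in lower case.
LHY: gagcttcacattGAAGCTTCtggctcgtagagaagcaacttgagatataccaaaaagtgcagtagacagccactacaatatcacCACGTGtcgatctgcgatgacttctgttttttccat
BHLH100: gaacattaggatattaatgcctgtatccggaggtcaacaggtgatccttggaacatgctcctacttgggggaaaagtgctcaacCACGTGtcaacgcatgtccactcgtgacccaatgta

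The heat element pair was found in 4 of 14 tested heat shock genes, in 10.9% of all genes that fell at least 2-fold, in 7.66% of those that rose and in 9.05% of all tested genes, counting both strands.

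All 8 morning clock genes fell (median -1.85), RVE8 with 17.36, 18.3 and 16.3 FPKM in treated libraries, against 62, 63.3 and 49.5 FPKM in untreated libraries (log2 change -1.69 ± 0.10, adjusted p = 8.36e-10), RVE1 with 10.8, 9.24 and 10.6 FPKM in treated libraries, against 37, 61 and 52.3 FPKM in untreated libraries and LNK2 with 134, 135 and 129 FPKM in treated libraries, against 269, 321 and 259 FPKM in untreated libraries. Of 15 day and evening genes 10 rose and 1 fell, GI, a large clock scaffold gene, with 20.3, 20.1 and 20.9 FPKM in treated libraries, against 10.9, 9.74 and 7.28 FPKM in untreated libraries, and ELF3, a member of the evening complex, with 15.3, 13.8 and 16 FPKM in treated libraries, against 9.07, 9.36 and 7.58 FPKM in untreated libraries. Among light-response genes 11 of 14 fell and 3 rose. HYH, a bZIP factor gene close to HY5, had 45, 51.6 and 39.9 FPKM in treated libraries, against 135, 128 and 96.6 FPKM in untreated libraries. RUP2, a repressor of the UV-B receptor, had 6.68, 7.58 and 5.52 FPKM in treated libraries, against 37.1, 26.1 and 21.4 FPKM in untreated libraries. BBX22, a B-box factor of photomorphogenesis, rose, with 35.1, 35.3 and 37.7 FPKM in treated libraries, against 7.19, 7.68 and 9.23 FPKM in untreated libraries (log2 change 2.04 ± 0.085, adjusted p = 5.14e-12). PIF4, a growth-promoting bHLH factor, had 61.7, 58.2 and 62.1 FPKM in treated libraries, against 19.98, 28.7 and 29 FPKM in untreated libraries.

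Early flavonoid genes fell in 11 of 14 cases. FLS1, the flavonol synthase gene, had 38.1, 47.5 and 35.1 FPKM in treated libraries, against 194, 177 and 175 FPKM in untreated libraries (log2 change -2.16 ± 0.13, adjusted p = 6.00e-10). CHIL, a chalcone isomerase-like helper gene, had 54.9, 68.9 and 50.0 FPKM in treated libraries, against 204, 212 and 217 FPKM in untreated libraries. CHS, the chalcone synthase gene, had 145, 168 and 128 FPKM in treated libraries, against 374, 383 and 397 FPKM in untreated libraries. Of 11 late anthocyanin genes 6 rose and 1 fell. LDOX, the leucoanthocyanidin dioxygenase gene, had 16, 18.9 and 9.97 FPKM in treated libraries, against 5.98, 6.36 and 5.58 FPKM in untreated libraries (log2 change 1.15 ± 0.27, adjusted p = 0.00334), with treated replicate 3 the lowest of its group, as it was for 5MAT, UGT75C1 and UGT79B1.

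Of 18 cell wall and water channel genes 11 fell and 1 rose. The plasma membrane aquaporin gene PIP2;1 had 697, 674 and 742 FPKM in treated libraries, against 1302, 1452 and 1392 FPKM in untreated libraries (log2 change -0.97 ± 0.081, adjusted p = 4.46e-08). PIP1;2 had 539, 542 and 577 FPKM in treated libraries, against 996, 1007 and 988 FPKM in untreated libraries. The vacuolar aquaporin gene TIP2;1 had 641, 562 and 696 FPKM in treated libraries, against 1009, 1244 and 1208 FPKM in untreated libraries. XTH19, a wall-loosening xyloglucan transferase gene, had 6.9, 5.66 and 8.94 FPKM in treated libraries, against 28, 28.5 and 33.1 FPKM in untreated libraries, while EXPA5, an expansin gene, rose, with 27.2, 30.7 and 24.4 FPKM in treated libraries, against 21.7, 17.59 and 14 FPKM in untreated libraries. TCH4, a touch-induced xyloglucan transferase gene, had 13.9, 15.3 and 22.2 FPKM in treated libraries, against 53.6, 84.4 and 58.9 FPKM in untreated libraries. The gibberellin synthesis gene GA3OX1 had 6.97, 7.31 and 6.19 FPKM in treated libraries, against 16.7, 16.3 and 12.8 FPKM in untreated libraries, whereas RGL3, a DELLA repressor gene, had 3.78, 3.95 and 4.61 FPKM in treated libraries, against 0.957, 1.94 and 1.42 FPKM in untreated libraries.

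The remaining lists held few calls or went both ways. Over all tested genes 21.4% rose and 20.1% fell. Of 14 cell cycle genes 1 rose and none fell, and CYCB2;1, the one that passed, had 22.6, 22 and 23.2 FPKM in treated libraries, against 20.6, 19.5 and 16.9 FPKM in untreated libraries, a call that ended without untreated replicate 3 and after common-total scaling (adjusted p = 0.078 to 0.11). Type-A response regulator genes of cytokinin led the falls of the cytokinin list (1 up and 5 down of 11), ARR3 with 2.33, 3.43 and 2.87 FPKM in treated libraries, against 9.24, 11.9 and 7.95 FPKM in untreated libraries. The counts up and down were 4 and 2 of 11 for auxin, 4 and 3 of 15 for gibberellin, 2 and 4 of 9 for ethylene, and 3 and 5 of 14 for touch and early stress. They were 6 and 4 of 13 for nitrate and ammonium, and 1 and 2 of 11 for dark and sugar starvation. Some of these counts rested on 1 library. Without untreated replicate 1 there were 3 rises and 5 falls for nitrate and ammonium, and 1 rise and 4 falls for starvation, whose falls numbered 1 when any of the other 5 compared libraries was left out. Its rises numbered 2 without treated replicate 2. No auxin gene fell without untreated replicate 2 or 3 or treated replicate 1 or 2, and 1 ethylene gene rose without untreated replicate 1 or treated replicate 3. Sugar-starvation genes varied between untreated libraries, as DIN10, a raffinose synthase-like gene, had 96.7, 76.5 and 118 FPKM in treated libraries, against 66.3, 139 and 199 FPKM in untreated libraries, with untreated replicate 1 the lowest. BT2, a scaffold protein gene, had 33.3, 21.6 and 49.7 FPKM in treated libraries, against 41.6, 120.3 and 154 FPKM in untreated libraries, and both genes overlapped between the groups. Of 7 tested reference genes 2 fell and none rose. ACT2 fell, with 321, 313 and 336 FPKM in treated libraries, against 533, 583 and 559 FPKM in untreated libraries (log2 change -0.79 ± 0.067, adjusted p = 5.28e-08). EF1A had 1019.8, 1017 and 1012 FPKM in treated libraries, against 1032, 971 and 939 FPKM in untreated libraries and overlapped. Medians of the arginine, abscisic acid, auxin, starvation, chlorophyll synthesis, seed storage and reference lists changed sign under at least 1 alternative. The salicylic acid median was 0, and it lay between -0.01 and 0.26 under the alternatives.

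**Figure D3:**
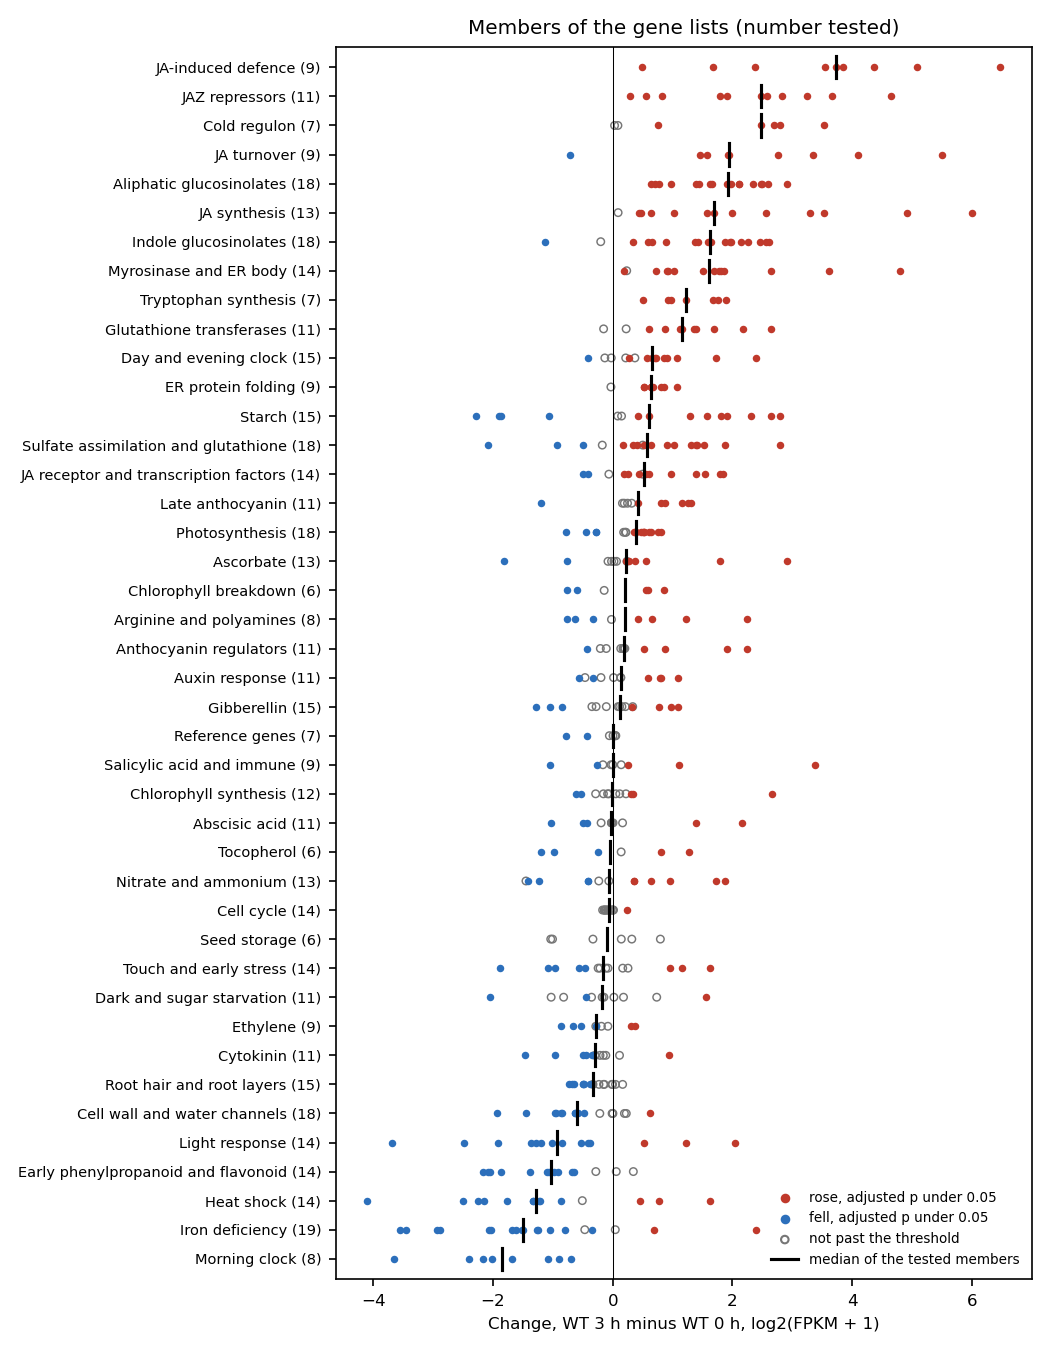
Each row is a gene list with at least 4 tested members, sorted by the median change (black line), and each circle is a member's change, treated minus untreated, in log2(FPKM + 1). Filled red and blue circles passed an adjusted p of 0.05 and open circles did not. JA-induced defence, JAZ and cold genes are at the top, and morning clock, iron and heat shock genes at the bottom.

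Some of the genes that rose lay side by side on the chromosome. Of 770 nuclear genes that rose at least 2-fold 171 (22.2%) had a neighbour among the listed genes that also rose, in 74 runs, 14 of them of 3 or more genes. Of 433 that fell 43 (9.93%) were in 21 runs, 1 of them that long. The share for sets of these sizes placed at random was not computed. The genes that rose were 4.32% of all tested genes and those that fell 2.43%. A larger set meets more neighbours of its own kind, so the 2 shares in runs cannot be compared directly. The genes below were picked from the runs after their values were seen. Since a run holds only neighbours that rose, the shared direction within it is fixed by that choice. One run held genes of the thalianol cluster, which makes a root triterpene. THAS1, its oxidosqualene cyclase gene, had 239.9, 240.4 and 219.7 FPKM in treated libraries, against 27, 35.1 and 31.4 FPKM in untreated libraries (log2 change 2.87 ± 0.12, adjusted p = 7.54e-12). Its P450 genes CYP708A2 and CYP705A5 had log2 changes of 1.89 ± 0.12 and 1.75 ± 0.094. The acyltransferase gene AT5G47980 had 61, 58.7 and 51.2 FPKM in treated libraries, against 6.23, 8.53 and 6.42 FPKM in untreated libraries. In the marneral cluster MRN1, the cyclase gene, had 6.23, 6.57 and 6.75 FPKM in treated libraries, against 0.798, 1.69 and 0.784 FPKM in untreated libraries. CYP705A12 had 45.9, 41.1 and 41.2 FPKM in treated libraries, against 4.83, 7.16 and 6.65 FPKM in untreated libraries. Of the 3 MD-2-related genes that follow the amino acid permease gene AAP7, AT5G23830 had 566, 607 and 557 FPKM in treated libraries, against 45.8, 45.4 and 48.4 FPKM in untreated libraries. Tandem copies share sequence, so FPKM may split their reads.

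Set against the 1 h samples of the same genotype, 29% of the tested genes passed, 2579 (14.5%) higher and 2585 (14.5%) lower at 3 h. The change in that comparison uses no 0 h sample, but its p-values rest on the spread of all 18 libraries. With only the libraries compared 4657 genes passed in place of 5164. Of 11 JAZ genes 8 were lower and 1 higher at 3 h than at 1 h, but the number lower was 5 without treated replicate 1 and with a pseudocount of 0.1. Of 9 turnover genes 7 were lower and 2 higher, and of 13 synthesis genes 8 and 3. The number of turnover genes higher was 1 without 1 h replicate 3 or treated replicate 1 or 2, with a pseudocount of 0.1 and with only the libraries compared. The receptor and transcription factor list had 6 lower and 1 higher of 14, and the number higher was 0 without 1 h replicate 1 or treated replicate 3 and 2 without treated replicate 2. TAT3 had means of 1.11 ± 0.52, 129 ± 5.5 and 26.5 ± 0.7 FPKM at 0, 1 and 3 h (SD, n = 3 each; 3 h against 1 h -2.24 ± 0.16, adjusted p = 4.43e-08). IAR3 had 19.7 ± 1.1, 188 ± 4.3 and 78 ± 2 FPKM. AT4G29930, a bHLH factor gene, was nearly back at its start, with 6.47 ± 1.7, 64.9 ± 8.3 and 10.7 ± 0.2 FPKM.

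In the aliphatic glucosinolate list 13 of 18 genes were higher at 3 h than at 1 h and none lower, against 14.5% each way of all tested genes. The number higher was 10 or 11 when any 1 h or treated library was left out. It was 10 after common-total scaling and with a pseudocount of 0.1. The median log2 change of this list from 0 h was already 1.02 at 1 h and was 1.93 at 3 h. In the starch list 9 of 15 were higher and 4 lower at 3 h than at 1 h. The number higher was 7 without 1 h replicate 1 or 3 or treated replicate 1. It was 8 without treated replicate 2 or 3 and with only the libraries compared. SEX1 had 13.8 ± 0.59, 16.7 ± 1.4 and 50.9 ± 2.2 FPKM at 0, 1 and 3 h (3 h against 1 h 1.55 ± 0.064, adjusted p = 1.36e-10), and PORB had 61.5 ± 11, 64.1 ± 6.3 and 393 ± 32 FPKM. F6′H1 had 8.8 ± 0.095, 9.53 ± 1.2 and 50.9 ± 6.9 FPKM. CCL, a gene named for its likeness to the clock-regulated CCR genes, had 11 ± 5.3, 15.2 ± 2.2 and 164 ± 27 FPKM, and Fes1B, a co-chaperone gene, had 0.795 ± 0.43, 0.855 ± 0.2 and 15.1 ± 2.2 FPKM. Some genes were lowest at 1 h, such as the dormancy-associated gene DRM2, with 9 ± 2.1, 2.65 ± 1.8 and 29.6 ± 12 FPKM, and AT3G62550, an adenine nucleotide hydrolase-like gene, with 1.86 ± 0.95, 0.482 ± 0.2 and 21 ± 4 FPKM. ROF2 was lower at 3 h than at 1 h, with 21 ± 5.2, 25.9 ± 6.6 and 3.53 ± 0.26 FPKM at 0, 1 and 3 h.

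**Figure D4:**
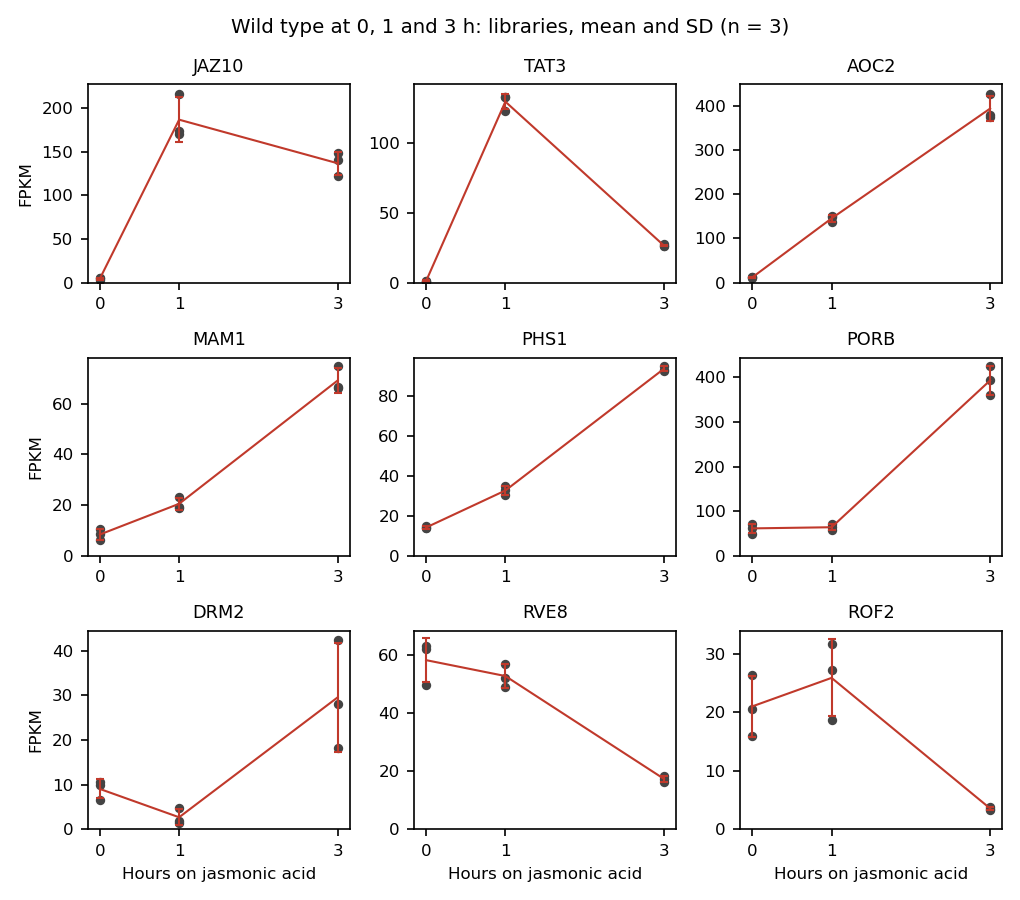
FPKM of 9 genes in wild type at 0, 1 and 3 h on JA, with each library as a point and the mean with SD (n = 3) as a line. JAZ10 and TAT3 are highest at 1 h, AOC2, MAM1, PHS1 and PORB at 3 h, DRM2 dips at 1 h, and RVE8 and ROF2 fall mainly between 1 and 3 h.

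The response at 3 h was then compared with that of ecap-2, as the difference of the 2 changes from 0 h, which use separate 0 h samples. It passed for 2.42% of the tested genes, 231 (1.3%) with a higher and 201 (1.13%) with a lower change in ecap-2. The count was not stable, since leaving out 1 library at a time gave 130 to 1262 genes and moved it by over 1.5 times for 10 of 12 libraries. It fell to between 130 and 236 genes without untreated wild type replicate 2, any treated wild type library, untreated ecap-2 replicate 2 or 3 or treated ecap-2 replicate 1 or 2, and it came to 1262 genes without untreated ecap-2 replicate 1 and to 865 genes without treated ecap-2 replicate 3. AT3G58110, taken here as ECAP from general knowledge, had 2.62, 2.34 and 2.72 FPKM in ecap-2 at 3 h and 12.3, 12.8 and 13.8 FPKM in wild type at 3 h, and 16.1, 14.4 and 14.8 FPKM in untreated wild type. Its log2 change in wild type was -0.20 ± 0.074 (adjusted p = 0.0401, and 0.058 to 0.16 under 6 alternatives, among them leaving out treated replicate 1 or 2 or untreated replicate 1 or 3). The iron genes FRO2 and CYP82C4 differed in response, but they were low in ecap-2 before treatment, FRO2 with 0.792, 0.481 and 0.762 FPKM in untreated ecap-2 and 12.4, 6.44 and 5.09 FPKM in untreated wild type (difference of responses 1.51 ± 0.30, adjusted p = 0.0156, 0.051 to 0.052 without replicate 2 of untreated or treated ecap-2, and 0.32 with a pseudocount of 0.1). TT7, the flavonoid 3′-hydroxylase gene (AT5G07990), changed by 1.28 ± 0.16 in ecap-2 and by -0.91 ± 0.16 in wild type (difference 2.19 ± 0.23, adjusted p = 0.000751), and the differences were 0.83 ± 0.20 for CHS, 0.70 ± 0.14 for CHI and 0.67 ± 0.11 for C4H. The call for CHS ended when any of 9 libraries was left out (adjusted p = 0.068 to 0.13) and in 3 other alternatives (0.054 to 0.063), and that for CHI when any of 3 libraries was left out (0.051 to 0.057). Of 14 tested early phenylpropanoid and flavonoid genes 6 passed with a higher and 0 with a lower response in ecap-2, against 1.3% and 1.13% of all tested genes. The number higher was 3 without treated wild type replicate 1, untreated ecap-2 replicate 2 or treated ecap-2 replicate 2, and 10 with library weights and with the replicate block. Of 11 late anthocyanin genes 1 passed with a higher response, and this count ran from 0 to 3 when 1 library was left out.

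BAM5, a beta-amylase gene, had 157, 144 and 86.2 FPKM in treated and 4.07, 4.84 and 5.13 FPKM in untreated ecap-2, against 6.73, 8.82 and 4.7 FPKM in treated and 0.0967, 0.104 and 0.0585 FPKM in untreated wild type (difference of responses 1.68 ± 0.40, adjusted p = 0.0444). That difference was -0.45 with a pseudocount of 0.1, and its call ended when any of 9 libraries was left out (adjusted p = 0.069 to 0.12), after common-total scaling (0.057) and with that pseudocount (0.62). NRT1.5 fell less in ecap-2, with 20.8, 20.8 and 20.8 FPKM in treated and 92.9, 101 and 78.2 FPKM in untreated libraries (difference 1.08 ± 0.20, adjusted p = 0.0118). BGLU18 rose less, by 3.60 ± 0.15 in ecap-2 and 4.80 ± 0.15 in wild type (difference -1.19 ± 0.22, adjusted p = 0.0105), and AOC2 rose by 3.81 ± 0.17 in ecap-2 from a higher untreated level of 23.8, 22.6 and 36.5 FPKM (difference -1.12 ± 0.24, adjusted p = 0.0237, and 0.051 to 0.061 when any of 5 libraries was left out). TPS-CIN, a cineole synthase gene, stood at 0.573, 0.985 and 0.847 FPKM in treated ecap-2 and 26.5, 27.5 and 15.6 FPKM in treated wild type, and was already low in untreated ecap-2, at 0.618, 0.291 and 0.853 FPKM (difference of responses -1.18 ± 0.28, a call that ended when any of 7 libraries was left out, adjusted p = 0.064 to 0.094, and with only the libraries compared or a pseudocount of 0.1, adjusted p = 0.063 and 0.28). None of the 11 tested JAZ genes passed for a difference of responses by limma, against 2.42% of all tested genes, and 1 had an unadjusted p under 0.05. At so low a share, a count of none among 11 genes does not show equal responses. For JAZ10 the difference was 0.39 ± 0.22 and for JAZ1 0.01 ± 0.14.

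**Figure D5:**
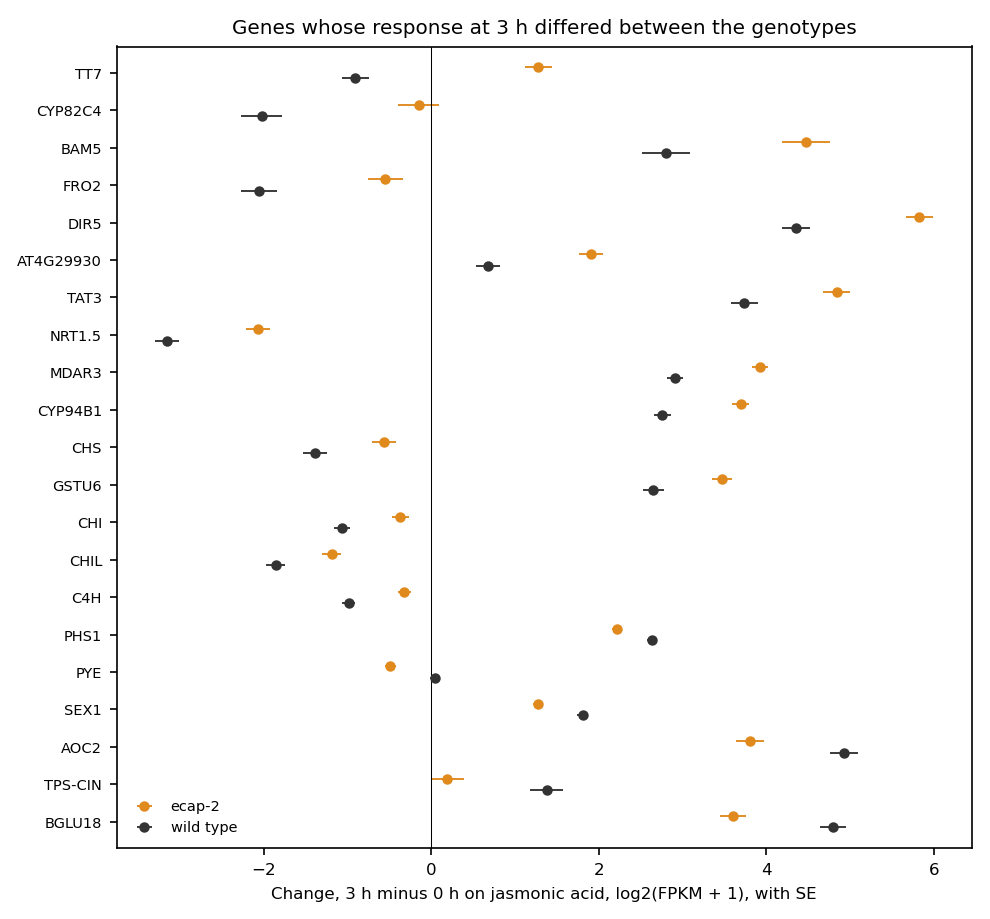
Change from 0 to 3 h on JA in ecap-2 (orange) and wild type (black), in log2(FPKM + 1) with SE, for the genes named in the text whose responses differed with an adjusted p under 0.05. Genes are sorted by the difference, with those that changed more upward in ecap-2 at the top.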

How the data were processed

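RNA sequencing of 18 whole-seedling libraries gave one table per library, each listing gene values in FPKM as deposited by the authors and named so per the file headers. TopHat2, Cufflinks and TAIR10 are named per the submitters' processing notes, with versions not given in the sources used here. Each library's group is that of its recorded genotype and time. Gene names and upstream windows of 250 bases came from RefSeq's TAIR10.1, which matched 22122 of the listed genes. Some list names (JOX3, JOX4, JAZ13, UGT75C1, F6′H1, TT7) were assigned to identifiers from general knowledge.

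Values were taken as log2(FPKM + 1), which understates the change of genes near 0. All 18 libraries entered one linear model with 6 group means in limma 3.58.1 (R 4.3.3, statmod 1.5.0), with trended and robust empirical Bayes moderation. The two-sided p-values were adjusted over 17835 genes by the Benjamini-Hochberg method, at a threshold of 0.05. Errors beside log2 values are SE, and those beside FPKM are SD over 3 libraries. Simulated data had 17835 genes, 200 of them changed in each of 5 rounds, and independent normal noise. There the model recovered 94.8% of genes changed by 1 and 67.8% of those changed by 0.5 on the log2 scale, with 4.90% of calls false. In the real data 41.5% of genes were called and single libraries moved some counts, so these rates do not carry over to it.

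The comparison and the 43 gene lists (584 genes, 552 in the tables, 508 tested) were chosen with earlier results of these data known, and 32 listed genes were not analysed here. Genes are named if past the threshold, with libraries apart and a higher mean of at least 5 FPKM, among the 20 largest rises and falls or the 10 largest for the other comparisons, or if they belong to a list (up to 8 members of smallest p, up to 3 called against the majority, up to 3 of highest mean not called). RBCS1A is a shoot marker of the design. MYB34 and 7 genes in chromosome runs were named after their values were seen. Alternatives were pseudocounts of 0.1 and 5, no filter or a mean of 5 FPKM, common-total, quantile and trimmed mean scaling, plain moderation, only the libraries compared, a replicate block, library weights, nuclear genes only, and leaving out each library. Plots used Python 3.11.15 and matplotlib 3.10.9.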

Additional observations from a re-analysis of the deposited data

Results flagged for a closer look

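The change from 0 to 3 h on JA differed between ecap-2 and wild type, by a test of the difference itself (limma, adjusted p under 0.05), for 21 of the genes named above. Each value is the change in ecap-2 minus the change in wild type on the log2(FPKM + 1) scale. Among early phenylpropanoid and flavonoid genes, of which 6 of 14 tested passed, the difference was 2.19 for TT7, 0.83 for CHS, 0.70 for CHI, 0.67 for CHIL and 0.67 for C4H. In wild type these 5 genes fell at 3 h. The iron genes CYP82C4 and FRO2 differed by 1.88 and 1.51 and had a low untreated level in ecap-2, while PYE differed by -0.53.

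Of other genes DIR5 differed by 1.47 (listed at 0 in untreated wild type), AT4G29930 by 1.23, TAT3 by 1.1, MDAR3 by 1.02, CYP94B1 by 0.94 and GSTU6 by 0.82. The nitrate transporter gene NRT1.5 differed by 1.08. BGLU18, TPS-CIN and AOC2 had lower responses in ecap-2, by -1.19, -1.18 and -1.12. The starch genes parted, with 1.68 for BAM5, -0.53 for SEX1 and -0.42 for PHS1. For 11 of the 21 genes (AOC2, BAM5, CHI, CHIL, CHS, CYP82C4, FRO2, GSTU6, PHS1, TAT3 and TPS-CIN) at least 1 alternative ended the call.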

How the results depend on the processing

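For treated against untreated wild type, the counts of genes called, higher and lower stayed within 1.5 times of 7400, 3817 and 3583 under all 18 alternatives run, and the count of at least 2-fold changes was 1204, against 661 with a pseudocount of 5. Of 148 named genes called there, 3 lost the call under at least 1 alternative (AT3G58110, CYCB2;1 and MYC3), and none changed direction. The count against 1 h stayed within 1.5 times of 5164. The count of response differences was 432, against 777 with common-total scaling, 658 with a pseudocount of 5, 3604 with library weights and 130 to 1262 when 1 library was left out. The difference for BAM5 was -0.45 with a pseudocount of 0.1 and 1.68 with 1. Causes were not tested.

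The labels do not say that equal replicate numbers share a culture or day, so the numbers were not taken as pairs. Deviations from the group means had r of 0.02, -0.14 and 0.01 for same-numbered treated and untreated wild type libraries. For unlike-numbered ones r ran from -0.10 to 0.11. With 3 libraries a group these values cannot exclude pairing, and they do not cover the 1 h or ecap-2 libraries. With the replicate block 789 response differences passed, and 7716 genes passed for treated against untreated wild type.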
